A study of Mus musculus with 19 samples.

Results

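The 4 genes described here are the myogenic regulatory factors Myod1, Myf5, Myog (myogenin) and Myf6 (Mrf4), the basic helix-loop-helix (bHLH) transcription factors of the skeletal muscle lineage. They were taken as a family by name, not by a measured value, and are 4 of the 35598 genes of the expression tables. All 4 passed the filter on low counts, which left 15123 genes for testing. In each group every library held estimated counts for all 4 genes, from 29 for Myf6 in a myoblast library to 73230 for Myog in a differentiated one.

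The factors bind DNA at E-boxes as dimers with the widely expressed E proteins, and Id proteins and other bHLH or zinc-finger repressors oppose this. Myf5 and Myod1 are known as determination factors, which commit cells to the muscle lineage and are present in dividing myoblasts. Myog is known as the differentiation factor that is switched on when myoblasts leave the cell cycle, and Myf6 as a late factor of myotubes and muscle fibres. Factors of the Mef2 family act with them on muscle gene promoters.

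The study sequenced RNA of primary myoblasts from mouse hind-limb muscle taken through differentiation and fusion in culture. Cells carried either the wild-type genotype (WT) or a deficiency of Glud1 (Glud1KO), the mitochondrial enzyme glutamate dehydrogenase, and the question named by the design is what that deficiency changes at each stage. For each genotype there were proliferating myoblasts after 24 h in growth medium, differentiated cells at 48 h and fused myotubes at 72 h. The groups held 3 WT and 3 Glud1KO myoblast libraries, 3 WT and 2 Glud1KO differentiated libraries, and 4 libraries of each genotype for fused myotubes, 19 in all. The sources used here give no allele, Cre driver, strain, sex or age, and do not say whether replicates came from separate animals or cultures. The p-values therefore measure the spread between these libraries, which may be partly technical.

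In GRCm38 with GENCODE M21 annotation, the plus strand of chromosome 7 carries Myod1 (46376474 to 46379099) and that of chromosome 1 carries Myog (134289989 to 134292548). Myf5, on chromosome 10 from 107482908 to 107486134, and Myf6, on chromosome 10 from 107492853 to 107494737, are both on the minus strand and lie 6718 bases apart. Each gene has 1 annotated transcript of 3 exons. The 4 factors are most alike in the DNA-binding bHLH domain, so the stretch of coding sequence that encodes most of it is shown, 150 bases inside 1 exon of each gene. Capitals mark the 90 positions at which all 4 genes carry the same base.
Myod1: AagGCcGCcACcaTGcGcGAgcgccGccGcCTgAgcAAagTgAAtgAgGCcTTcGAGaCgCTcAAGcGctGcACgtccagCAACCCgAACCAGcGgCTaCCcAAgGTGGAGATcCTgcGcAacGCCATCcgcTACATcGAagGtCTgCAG
Myf5: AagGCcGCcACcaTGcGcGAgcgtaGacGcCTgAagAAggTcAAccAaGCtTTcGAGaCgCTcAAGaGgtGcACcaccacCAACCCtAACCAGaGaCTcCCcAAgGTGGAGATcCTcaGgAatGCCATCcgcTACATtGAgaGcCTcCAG
Myog: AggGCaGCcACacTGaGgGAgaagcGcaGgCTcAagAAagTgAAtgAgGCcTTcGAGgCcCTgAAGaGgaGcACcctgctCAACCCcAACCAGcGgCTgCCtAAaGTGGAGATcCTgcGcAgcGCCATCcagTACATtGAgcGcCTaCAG
Myf6: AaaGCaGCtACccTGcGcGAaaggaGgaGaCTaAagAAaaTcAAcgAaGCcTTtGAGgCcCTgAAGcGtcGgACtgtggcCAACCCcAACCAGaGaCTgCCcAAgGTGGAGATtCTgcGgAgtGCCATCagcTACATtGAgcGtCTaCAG

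Over this window Myod1 and Myf5 shared 80.7% of bases and 90% of encoded residues, the highest pair. Myog and Myf6 shared 76% of bases and 86% of residues. The pairs across these couples shared 70.7% to 74.7% of bases and 78% to 80% of residues. The lower-case letters break up the shared runs: no stretch of 31 bases was common to any pair of the 4 transcripts, whole length included. An exact match of 31 bases therefore belongs to at most 1 of the 4.

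Myog had the largest fold rise of the 4 from 24 to 48 h, and its promoter is a textbook case of E-box and Mef2 control, so its letters are shown. They are the 250 bases before its RefSeq start, chr1:134289754-134290003 on the plus strand of GRCm38.p6, with 3 motif matches in capitals. The last 15 bases lie inside the GENCODE transcript.
Myog promoter: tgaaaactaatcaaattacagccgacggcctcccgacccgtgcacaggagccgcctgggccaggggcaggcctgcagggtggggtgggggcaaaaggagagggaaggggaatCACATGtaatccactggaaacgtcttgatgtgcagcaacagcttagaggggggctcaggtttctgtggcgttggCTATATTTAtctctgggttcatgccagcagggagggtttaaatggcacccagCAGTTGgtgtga

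The matches are the E-box letters CACATG from -138 to -133, the Mef2 core letters CTATATTTA from -64 to -56 and the E-box letters CAGTTG from -12 to -7, counted from the RefSeq start. The E-box search used CANNTG, which reads the same on both strands as a pattern, and 66.2% of 32851 RefSeq promoter windows of the same length held at least 1 match, and 31.8% of the 32851 held 2 or more. The Mef2 core was searched on both strands as CTA, 4 letters that are each A or T, and TA, and 1074 of the 32851 windows held it (3.27%). The Myf5 window held neither pattern, which says only that these letters are not in those 250 bases. The 3 matches do not overlap. A match describes letters and is no evidence of binding in these cells.

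Libraries held 16168131 to 30742634 estimated counts. Levels are given as CPM, counts scaled to a common library total, after TMM scaling, a normalisation that offsets differences in library composition. Glud1 RNA gave different answers by unit. In CPM it averaged 189 ± 4.17 (SD, n = 3) in WT and 187 ± 2.69 (n = 3) in Glud1KO myoblasts, and the gene was called by edgeR at no stage. In deposited TPM, which takes transcript lengths into account, it was lower under the Glud1KO label with no overlap at each stage, at 139 ± 3.21 against 169 ± 6.10 in myoblasts, 61.7 ± 3.96 against 83.8 ± 3.73 in differentiated cells and 79.4 ± 2.82 against 102 ± 2.25 in myotubes. Which part of Glud1 was altered is not given in the sources used here. The names of the deposited files mark the libraries of both labels as KO, with an added letter of unstated meaning for the Glud1KO-labelled ones, so the groups rest on GEO's labels and are called WT-labelled and Glud1KO-labelled below. The libraries carried myogenic RNA throughout, with 8 myogenic markers, 3 of the factors among them, summing to 1781 to 9906 CPM. The summed markers of endothelial, adipocyte and Schwann cells reached at most 2.72 CPM in any library. Smooth muscle markers summed to 31.3 to 41.0 CPM in myoblasts, nearly all Rgs5, and to at most 1.89 CPM later, and immune markers to at most 28.0 CPM, nearly all Itgam at the later stages. Fibroblast markers summed to 269 to 294 CPM in myoblasts, almost all of it Col3a1, while Dcn was at most 0.19 CPM and Lum at most 0.0327 CPM in any library.

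Myod1 was a gene of high and moderately changing level. The WT-labelled myoblasts held 693, 661 and 719 CPM, and the Glud1KO-labelled ones 684, 680 and 645 CPM. The differentiated libraries held 869, 770 and 804 CPM under the WT label against 645 and 668 CPM under the Glud1KO label. Fused myotubes had 284, 297, 302 and 311 CPM under the WT label and 349, 324, 306 and 307 CPM under the Glud1KO label. The WT-labelled differentiated libraries thus stood above all others, the fused ones stood lowest, and the groups in between overlapped with one another, as did the 2 fused groups. The highest group mean was 2.73 times the lowest.

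Myf5, the other determination factor, was lowest in differentiated cells and highest in myotubes. Its myoblast libraries held 86.1, 81.0 and 82.5 CPM under the WT label and 85.8, 79.7 and 86.2 CPM under the Glud1KO label. At 48 h the WT-labelled libraries held 67.8, 63.5 and 58.5 CPM, and the Glud1KO-labelled ones 55.2 and 55.1 CPM. At 72 h the values were 125, 128, 129 and 118 CPM under the WT label and 99.2, 102, 100.3 and 99.97 CPM under the Glud1KO label. In the order of the 6 groups, only the 2 myoblast groups overlapped with their neighbour. The span from the lowest to the highest group mean was 2.26-fold.

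Myog was low in myoblasts and peaked in differentiated cells. Its WT-labelled myoblast libraries held 118, 104 and 119 CPM, and the Glud1KO-labelled ones 64.6, 73.5 and 82.5 CPM, a gap with no overlap. At 48 h the levels were 2494, 2364 and 2578 CPM under the WT label and 2334 and 2594 CPM under the Glud1KO label. At 72 h they were 829, 865, 895 and 953 CPM under the WT label and 898, 884, 848 and 893 CPM under the Glud1KO label. The labels overlapped at both later stages and the 3 stages never did. Group means spanned 33.7-fold.

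Myf6 had the widest range, 127-fold between group means, and was the only one of the 4 genes whose 6 groups were fully separated in order. Myoblasts held 1.51, 1.64 and 1.77 CPM under the WT label and 1.15, 0.949 and 1.21 CPM under the Glud1KO label, from 29 to 53 counts per library. Differentiated libraries held 31.3, 29.0 and 31.5 CPM under the WT label and 22.5 and 27.9 CPM under the Glud1KO label. Fused myotubes held 141, 146, 139 and 135 CPM under the WT label and 104, 108, 101 and 96.8 CPM under the Glud1KO label. At each stage every Glud1KO-labelled library lay below every WT-labelled one. In these bulk libraries, fewer cells of a type and less RNA per cell cannot be told apart, for this gene and for every value that follows.

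**Figure D1:**
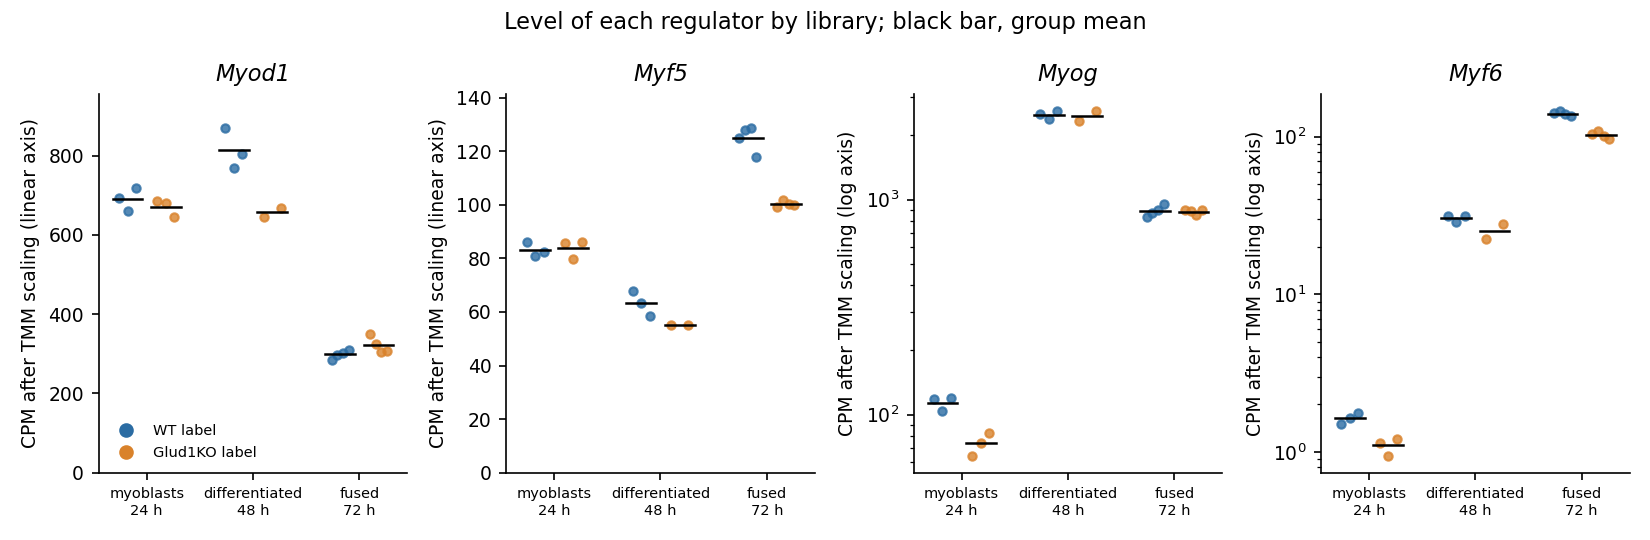
Level of Myod1, Myf5, Myog and Myf6 in each of the 19 libraries, in CPM after TMM scaling (linear axes from 0 for Myod1 and Myf5, log axes for Myog and Myf6), by stage, with blue points for the WT label, orange points for the Glud1KO label and a black bar for the group mean. Myog stands at 64.6 to 82.5 CPM in Glud1KO-labelled myoblasts against 104 to 119 CPM under the WT label, and Myf6 is lower under the Glud1KO label at all 3 stages.

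The course of each gene was tested with edgeR's quasi-likelihood test over all 19 libraries, with Benjamini-Hochberg adjustment over 15123 genes and a gene called at an adjusted p under 0.05. From WT-labelled myoblasts to differentiated cells, 84.9% of all genes passed, so a call by itself says little, and the sizes matter more. Myog rose by 4.44 on the log2 scale (SE 0.078, adjusted p = 1.05e-24), a 21.8-fold change larger than that of 94.0% of tested genes. Myf6 rose by 4.21 (SE 0.098, adjusted p = 3.89e-33), or 18.6-fold. Myod1 rose by 0.24 (SE 0.048, adjusted p = 2.09e-05) and Myf5 fell by 0.40 (SE 0.046, adjusted p = 2.90e-10). The small Myod1 rise depends on the scaling: with library size alone it became -0.01, a scaling that put the all-gene median at -0.23.

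From differentiated cells to fused myotubes (75.1% of genes called under the WT label), the factors parted. Under the WT label Myod1 fell by 1.45 on the log2 scale (SE 0.045, adjusted p = 7.72e-28) and Myog fell by 1.49 (SE 0.062, adjusted p = 1.94e-16), 2.73-fold and 2.80-fold lower. Myf5 rose by 0.98 (SE 0.044, adjusted p = 1.22e-22) and Myf6 by 2.19 (SE 0.051, adjusted p = 4.62e-32). Net from myoblasts to myotubes (85.4% called), Myf6 was 84.9-fold, Myog 7.77-fold and Myf5 1.5-fold higher, and Myod1 2.31-fold lower, by edgeR's adjusted p of at most 3.08e-16 each.

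Under the Glud1KO label the same edgeR test gave rises of 5.07 for Myog (SE 0.083, 33.5-fold) and 4.51 for Myf6 (SE 0.12, 22.7-fold) from myoblasts to differentiated cells, where 83.6% of genes were called. Myf5 fell by 0.60 (SE 0.054). Myod1 was not called (-0.03, SE 0.054, adjusted p = 0.617), and its sign and call moved with the scaling: it was 0.04 with DESeq2 size factors, -0.34 with library size alone and -0.28 on the log2(TPM + 1) scale, the last 2 of them called and with all-gene medians of -0.31 and -0.18. On to fused myotubes (70.2% called), Myod1 fell by 1.03, Myog fell by 1.48, Myf5 rose by 0.86 and Myf6 rose by 2.03. The net change (87% called) was 92.5-fold for Myf6, 12-fold for Myog and 1.2-fold for Myf5 upward, and 2.08-fold downward for Myod1. The Myf5 net change lost its call and sign with library size alone (-0.06) and on the log2(TPM + 1) scale (-0.01), settings that put the all-gene median at -0.35 and -0.19.

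Levels of different genes were compared per length, in TPM, a length-scaled transcript abundance, as shares of the summed TPM of the 4 factors. Myod1 held 72.2% ± 0.83 (SD, n = 3) of that sum in WT-labelled myoblasts and 76.1% ± 1.65 (n = 3) in Glud1KO-labelled ones. In differentiated cells Myog held 78.0% ± 0.92 (n = 3) and 81.2% ± 0.65 (n = 2), and in fused myotubes 61.5% ± 1.41 (n = 4) and 64.4% ± 0.87 (n = 4). The leading factor thus changed from Myod1 to Myog between 24 and 48 h in every library. Myf6 grew from 0.375% to 15.4% ± 0.93 of the sum in WT-labelled myotubes, where its range (14.3% to 16.2%) included that of Myod1 (14.98% to 15.1%). In Glud1KO-labelled myotubes Myf6 held 11.9% ± 0.48 and Myod1 17% ± 0.67, with no overlap.

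Summed over the 4 genes, TPM averaged 731 in WT-labelled myoblasts, 3054 in differentiated cells and 1269 in myotubes, against 669, 2646 and 1181 under the Glud1KO label. TPM carries no TMM scaling, and at 48 h the all-gene median between the labels was -0.09 on the log2(TPM + 1) scale. Myog at 48 h averaged 2148 TPM under the Glud1KO label against 2382 under the WT label, but 2464 against 2479 in CPM. The ratio of Myog to Myod1 TPM was 0.227 ± 0.014 in WT-labelled and 0.151 ± 0.023 in Glud1KO-labelled myoblasts. It was 4.19 ± 0.23 and 5.14 ± 0.25 at 48 h, and 4.09 ± 0.10 and 3.8 ± 0.19 at 72 h, with ranges that met only at 72 h. Shares carry no test, and they depend on the deposited effective lengths. For Myod1 these were 2080 to 2158 bases, above the 1861 bases of its transcript, and for Myog 1509 to 1558, above its 1495 bases. Those of Myf5 (1608 to 1693 for 2083 bases) and Myf6 (950 to 983 for 1263 bases) lay below the transcript length. By estimated counts instead of TPM, Myod1 held 77.7% in WT-labelled myoblasts and Myog 73.2% in WT-labelled differentiated cells. In WT-labelled myotubes Myf6 then held 9.69% and Myod1 20.6%, with no overlap.

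**Figure D2:**
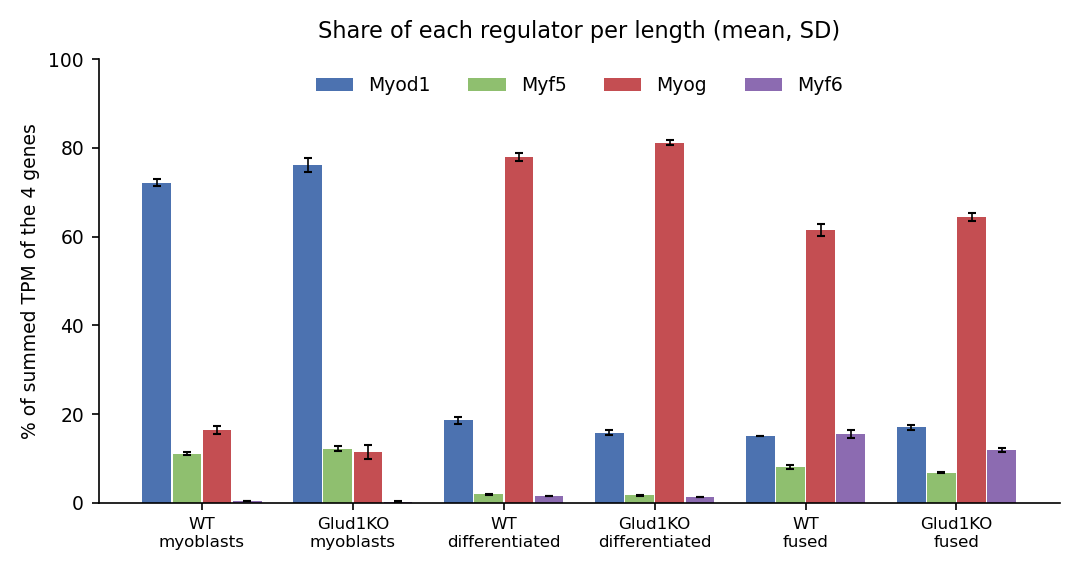
Share of each factor in the summed TPM of the 4 genes (bars from 0, mean per group, error bars SD, n = 2 to 4 libraries). Myod1 leads in myoblasts with 72.2% and 76.1%, Myog leads at both later stages, and Myf6 is visible as more than 1.52% only in fused myotubes.

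Between the labels in myoblasts, Myog and Myf6 were lower under the Glud1KO label and Myod1 and Myf5 were not called. Myog was 1.55-fold lower (73.6 ± 8.97 against 114 ± 8.89 CPM, n = 3 each; log2 -0.63, SE 0.073, edgeR adjusted p = 1.52e-06). Its change was larger than that of 91.4% of tested genes, and it stayed called under all 16 alternatives run, from -0.72 to -0.55. Myf6 was 1.49-fold lower (1.1 ± 0.14 against 1.64 ± 0.13 CPM; log2 -0.57, SE 0.19, edgeR adjusted p = 0.0369). That call rested on 29 to 53 counts per library and was lost under 7 of 16 alternatives, with adjusted p up to 0.167. Myod1 differed by -0.04 (95% interval -0.14 to 0.05, edgeR adjusted p = 0.622) and Myf5 by 0.01 (-0.08 to 0.10, edgeR adjusted p = 0.916). The 2 lower calls among 4 genes stand beside 6.8% of all genes called lower and 11.8% called in either direction.

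In differentiated cells Myog, by far the most abundant factor, did not pass the test (2464 ± 184 CPM, n = 2, against 2479 ± 108, n = 3; log2 -0.01, 95% interval -0.16 to 0.15). The other 3 factors were lower under the Glud1KO label. Myod1 was 1.24-fold lower (657 ± 16 against 814 ± 50.7 CPM; log2 -0.31, SE 0.054, edgeR adjusted p = 2.24e-05), and stayed called under all 15 alternatives. Myf6 was 1.22-fold lower (25.2 ± 3.84 against 30.6 ± 1.43 CPM; log2 -0.28, SE 0.072, edgeR adjusted p = 0.0026), but without Glud1KO-labelled replicate 1 it became -0.13, with an adjusted p of 0.298. Myf5 was 1.14-fold lower (55.2 ± 0.07 against 63.3 ± 4.64 CPM; log2 -0.19, SE 0.056, edgeR adjusted p = 0.00811). Its call was lost without WT-labelled replicate 1 or without either Glud1KO-labelled library, with adjusted p up to 0.0807. At this stage 25.4% of all genes were called and 14.2% were called lower, so single calls of this size were common.

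In fused myotubes the late factor Myf6 and the determination factor Myf5 were lower under the Glud1KO label, while Myod1 and Myog were not called. Myf6 was 1.37-fold lower (103 ± 4.77 against 140 ± 4.76 CPM, n = 4 each; log2 -0.45, SE 0.042, edgeR adjusted p = 1.13e-10). Myf5 was 1.24-fold lower (100.3 ± 1.08 against 125 ± 4.90 CPM; log2 -0.31, SE 0.039, edgeR adjusted p = 1.31e-07). Both calls held under all 18 alternatives run, with ranges of -0.48 to -0.42 and -0.34 to -0.30. Myod1 was 0.11 higher on the log2 scale (95% interval 0.02 to 0.19), with an adjusted p of 0.0976 by edgeR. Myog differed by -0.01 (-0.13 to 0.11). Of all genes, 13.1% were called here and 6.77% were called lower.

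With 3 libraries against 3 or 2, an exact two-sided permutation test cannot go below 0.1, and Myog and Myf6 in myoblasts and Myod1 and Myf6 in differentiated cells reached that value, while Myf5 in differentiated cells gave 0.2. With 4 against 4 the smallest p is 0.029, and Myf5 and Myf6 in myotubes reached it. After adjustment over the 12 such tests none was below 0.171. Ranges of the labels did not overlap for 2 factors in myoblasts, 3 in differentiated cells and 2 in myotubes, where 33%, 46.5% and 15.8% of all tested genes also did not overlap.

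**Figure D3:**
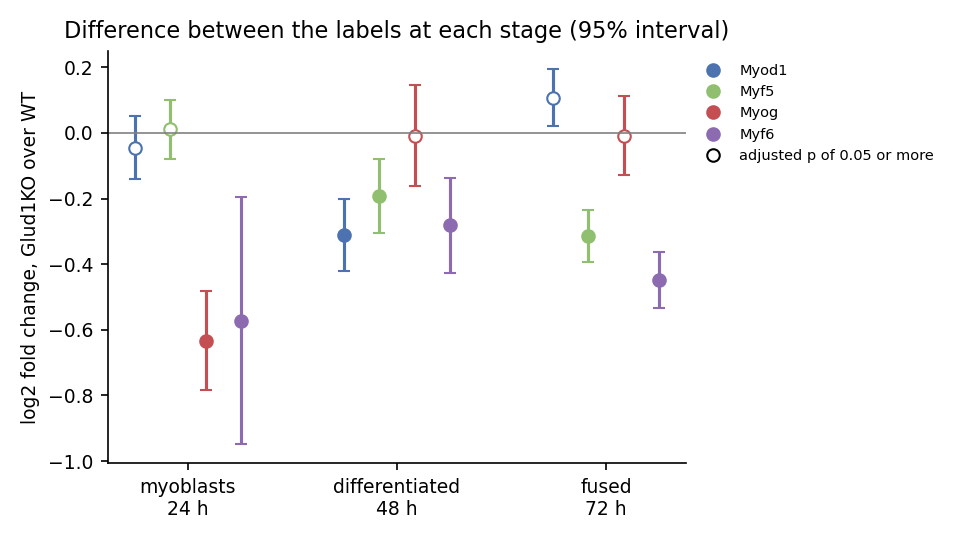
Log2 fold change of Glud1KO-labelled over WT-labelled libraries for each factor at each stage (y axis), with approximate 95% intervals derived from edgeR's F statistic, filled points for an adjusted p under 0.05 and open points otherwise. Myog is at -0.63 in myoblasts and at -0.01 at both later stages, and Myf6 is below 0 at all 3 stages.

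Whether the label effect differed between stages was tested as an interaction in the same edgeR fit. For Myog the effect in differentiated cells exceeded that in myoblasts by 0.62 on the log2 scale (SE 0.10, adjusted p = 1.08e-04, 19.5% of genes called), and the effect in myotubes exceeded it by 0.62 as well (SE 0.094, adjusted p = 6.70e-05, 10.7% called). The 2 values share the myoblast libraries. For Myod1 the effect in differentiated cells was below that in myoblasts by 0.27 (SE 0.072, adjusted p = 0.00627) and below that in myotubes by 0.42 (SE 0.069, adjusted p = 2.35e-05, 15.1% of genes called for the last contrast). The former was lost with the main transcript of each gene only (adjusted p = 0.0586). For Myf5 the effect in myotubes was below that in myoblasts by 0.33 (SE 0.059, adjusted p = 1.5e-04). The Myf5 effect was also called lower in differentiated cells than in myoblasts (-0.20, SE 0.071, adjusted p = 0.0376), a call lost under 13 of 21 alternatives. None of the 3 interactions was called for Myf6, with edgeR adjusted p of 0.347, 0.187 and 0.762. The one between differentiated cells and myotubes was called without Glud1KO-labelled differentiated replicate 1 (-0.32, adjusted p = 0.018). The intervals together ran from -0.34 to 0.69.

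The partners, regulators and targets of the factors were read from lists chosen by their known roles. The E proteins Tcf3, Tcf4 and Tcf12, with which the factors dimerise, were all tested. Tcf4 was lower in Glud1KO-labelled myoblasts (61.2 ± 0.49 against 74.8 ± 1.12 CPM, n = 3 each; edgeR adjusted p = 8.30e-07). Tcf3 (40.2 ± 2.61 against 48.9 ± 3.15 CPM) and Tcf12 (135 ± 0.38 against 150 ± 4.53 CPM) were lower in differentiated cells, by edgeR's adjusted p of 0.0015 and 0.00563, and neither was called without Glud1KO-labelled replicate 1 or with the main transcript of each gene only. The count of 1 lower in myoblasts became 2 with DESeq2 size factors, with DESeq2, on the log2(TPM + 1) scale, with the effective-length offset and with only the libraries compared, and the 2 lower in differentiated cells became 1 with the offset. No E protein was called in myotubes. Of all tested genes, 6.8% were called lower in myoblasts and 14.2% in differentiated cells.

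Inhibitors of the factors were called lower more often than higher in the first 2 stages. Of 16 tested of 18, 4 were lower and 0 higher in Glud1KO-labelled myoblasts, 6 lower and 0 higher in differentiated cells, and 1 lower and 2 higher in myotubes. Of all tested genes, 6.8% were called lower and 5% higher in myoblasts, 14.2% and 11.2% in differentiated cells, and 6.77% and 6.37% in myotubes. The list medians were 0.01, -0.31 and 0.01 on the log2 scale, against medians of 0.01, -0.01 and -0.01 over all tested genes. In differentiated cells Hes1, a Notch-induced repressor, stood at 4.47 ± 0.18 against 8.33 ± 0.43 CPM, and Snai2, a repressor that competes for E-boxes, at 3.78 ± 0.28 against 6.94 ± 1.11 CPM. In myoblasts Snai1 (3.29 ± 0.64 against 4.46 ± 0.64 CPM) and Bhlhe40 (6.09 ± 0.61 against 7.73 ± 1.06 CPM) were lower. In myotubes Id3, which binds E proteins, was higher (23.7 ± 0.89 against 19.8 ± 1.09 CPM), as was Bhlhe41 (49.99 ± 2.61 against 42.1 ± 1.74 CPM), and Bhlhe40 was lower (63.8 ± 1.33 against 72.1 ± 1.37 CPM). In differentiated cells Id3 was lower instead (75.4 ± 1.55 against 109 ± 8.91 CPM, edgeR adjusted p = 1.35e-09). Id1 (61.6 ± 3.45 against 79.5 ± 9.03 CPM) and Id2 (25.7 ± 0.76 against 34.0 ± 0.60 CPM) were called lower there too, and Id4 was not called. The myoblast count ranged from 0 to 5 over the alternatives, and fell to 1 without WT-labelled replicate 3 and to 2 without WT-labelled replicate 1 or Glud1KO-labelled replicate 2 or 3. The count of 6 ranged from 5 to 8. The 1 lower in myotubes, Bhlhe40, was lost on the log2(TPM + 1) scale, with the effective-length offset and with the main transcript of each gene only, and the count became 2 without WT-labelled replicate 2 or Glud1KO-labelled replicate 1. The 2 higher became 1 on the log2(TPM + 1) scale and with the offset.

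Among the Mef2 partners, 3 of 4 were tested, and Mef2a was lower at each stage. Mef2a stood at 220 ± 4.53 against 375 ± 4.30 CPM in myoblasts (log2 -0.77, SE 0.041), 679 ± 22.3 against 909 ± 16.4 in differentiated cells (-0.42, SE 0.046) and 484 ± 9.39 against 705 ± 32.3 in myotubes (-0.54, SE 0.035), with edgeR adjusted p of at most 1.81e-09. Mef2c moved both ways. It was lower in Glud1KO-labelled myoblasts (25.0 ± 1.5 against 33.1 ± 1.97 CPM) and higher in differentiated cells (1349 ± 88.7 against 1045 ± 47.6 CPM) and myotubes (2536 ± 134 against 2267 ± 79.0 CPM), by edgeR's adjusted p of 1.35e-05, 2.27e-06 and 0.00894. Both higher Mef2c calls were lost on the log2(TPM + 1) scale, and that in myotubes also with the effective-length offset and with the main transcript of each gene only.

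Of the regulators upstream of the family, 16 of 19 were tested, with 2 higher and 3 lower in Glud1KO-labelled myoblasts, 1 higher and 2 lower in differentiated cells and 1 higher and 0 lower in myotubes, beside the same all-gene shares. The 1 in myotubes was lost with the main transcript of each gene only. Pax7, the satellite cell factor, was lower in differentiated cells (5.63 ± 0.78 against 10.6 ± 0.58 CPM), as was Pitx3, a homeodomain factor (2.89 ± 0.68 against 4.87 ± 0.16 CPM), but 1 of this list was called lower there without Glud1KO-labelled replicate 2 or with the effective-length offset, and 4 with library size alone. Tead4, a factor of Hippo signalling, was higher there (222 ± 5.40 against 171 ± 14.2 CPM), a call lost on the log2(TPM + 1) scale, and without Glud1KO-labelled replicate 1 the list had 2 higher calls. Six2 was higher (26.6 ± 1.15 against 22.7 ± 0.93 CPM) and Eya4 lower (29.5 ± 1.43 against 34.8 ± 0.59 CPM) in myoblasts, where Pitx3 was lower too (6.86 ± 0.31 against 9.25 ± 1.48 CPM, edgeR adjusted p = 0.00496). The 5 myoblast calls all went on the log2(TPM + 1) scale, with the effective-length offset and with the main transcript only. The 2 higher ones also went without WT-labelled replicate 2 or Glud1KO-labelled replicate 1 or 2 and became 1 without any other myoblast library, and the 3 lower ones became 1 without WT-labelled replicate 3 or Glud1KO-labelled replicate 1. With DESeq2 size factors, library size alone, no filter, DESeq2 or the replicate block, the 2 higher ones became 1 as well. All 17 coactivators and chromatin partners were tested, with 2 higher and 1 lower in myoblasts, 2 higher and 7 lower in differentiated cells, and 1 higher and 3 lower in myotubes, for all-gene shares of 5% higher and 6.8% lower, 11.2% and 14.2%, and 6.37% and 6.77%. Setd7, a lysine methyltransferase, stood at 230 ± 1.42 against 200 ± 7.98 CPM in differentiated cells. Ezh2, a histone methyltransferase of dividing cells, was higher in myoblasts (125 ± 2.72 against 108 ± 5.13 CPM) and lower in differentiated cells (7.52 ± 0.18 against 10.5 ± 0.49 CPM). The 3 coactivator calls in myoblasts and the 3 lower ones in myotubes all went on the log2(TPM + 1) scale, with the effective-length offset and with the main transcript only. The 1 lower in myoblasts also went without WT-labelled replicate 3 or Glud1KO-labelled replicate 1 or 3. The 3 lower in myotubes became 1 without WT-labelled replicate 4, and 5 without WT-labelled replicate 2 or Glud1KO-labelled replicate 4, and the 1 higher became 2 without WT-labelled replicate 1 or Glud1KO-labelled replicate 3. In differentiated cells the 2 higher, Setd7 among them, were lost on the log2(TPM + 1) scale and became 1 without Glud1KO-labelled replicate 2. With the main transcript of each gene only, 2 coactivators were called lower in differentiated cells.

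Target genes of the factors, 39 of 39 tested, were mostly higher after myoblasts: 37 were higher and 1 lower in WT-labelled differentiated cells than in myoblasts (42.4% and 42.5% of all genes called higher and lower). Between the labels the list went opposite ways at the first 2 stages. In Glud1KO-labelled myoblasts 22 were lower and 1 higher (6.8% and 5% of all genes), with a median of -0.35 against 0.01 over all genes. Myh3, the embryonic myosin heavy chain, was lower there (117 ± 4.18 against 220.5 ± 11.8 CPM), and so was Acta1, skeletal alpha-actin (255 ± 16 against 437 ± 42.5 CPM). Cdc6, a replication licensing factor, was the higher one (36.5 ± 0.69 against 31.1 ± 0.85 CPM), a call lost without WT-labelled replicate 1 or 3, without each Glud1KO-labelled library, on the log2(TPM + 1) scale, with the offset and with the main transcript only. The count of 22 ranged from 15 to 26 over the alternatives. Beside these differences, fibroblast marker sums were 269 to 274 CPM under the Glud1KO label and 287 to 294 CPM under the WT label (1 of 4 tested markers lower), with Dcn and Lum at or near 0, and smooth muscle sums 31.3 to 33.8 against 36.7 to 41.0 CPM (1 of 2 lower). Their part in the myoblast differences, those of Myog and Myf6 included, was not tested.

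In Glud1KO-labelled differentiated cells 18 targets were higher and 1 lower (11.2% and 14.2% of all genes), with a median of 0.15 against -0.01. Mymx, the fusion micropeptide, was higher (113 ± 7.74 against 71.2 ± 1.2 CPM), as was Lmod2, a thin-filament protein (196 ± 10.7 against 131.5 ± 1.55 CPM). Dll1, a Notch ligand, was the lower one (20.4 ± 0.96 against 28.6 ± 1.29 CPM), a call lost with the effective-length offset. The 18 became 10 without Glud1KO-labelled replicate 2 and 7 on the log2(TPM + 1) scale. At the same stage Col3a1 averaged 9.06 CPM under the Glud1KO label against 24.3 under the WT label, with fibroblast marker sums of 8.13 to 12.1 against 24.3 to 27.2 CPM and 2 of 4 tested markers lower. Dcn and Lum were at or near 0 there. Itgam averaged 25.3 against 15.8 CPM, with Ptprc at most 0.305 and Adgre1 at most 0.0535 CPM. Of the smooth muscle markers 1 of 2 tested was higher, Myh11 (1.32 against 0.549 CPM), with sums of 1.23 to 1.89 against 0.774 to 0.871 CPM. The part of these markers in the label differences at this stage, those of Myod1, Myf5 and Myf6 included, was not tested.

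In myotubes 4 targets were higher and 4 lower (6.37% and 6.77% of all genes), with a median of 0.01. Mylpf, a fast regulatory light chain, stood at 11065 ± 722 against 9772 ± 761 CPM, and Tnnt1, slow troponin T, at 209.5 ± 11.1 against 258 ± 14.7 CPM. These counts ran from 0 to 8 and from 0 to 6 over the alternatives. The 4 higher became 1 without WT-labelled replicate 1 and 2 without Glud1KO-labelled replicate 2 or 3, and the 4 lower became 2 without WT-labelled replicate 1 or 3 or Glud1KO-labelled replicate 1 or 2. Fibroblast marker sums in myotubes were 6.17 to 7.40 CPM under the Glud1KO label and 7.75 to 9.25 CPM under the WT label (0 of 4 tested markers called). Their part in the myotube differences, those of Myf5 and Myf6 included, was not tested. The interaction between differentiated cells and myoblasts was called higher for 25 targets and lower for 1 (8.01% and 11.5% of all genes), and that between myotubes and differentiated cells higher for 1 and lower for 16 (8.38% and 6.7%).

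**Figure D4:**
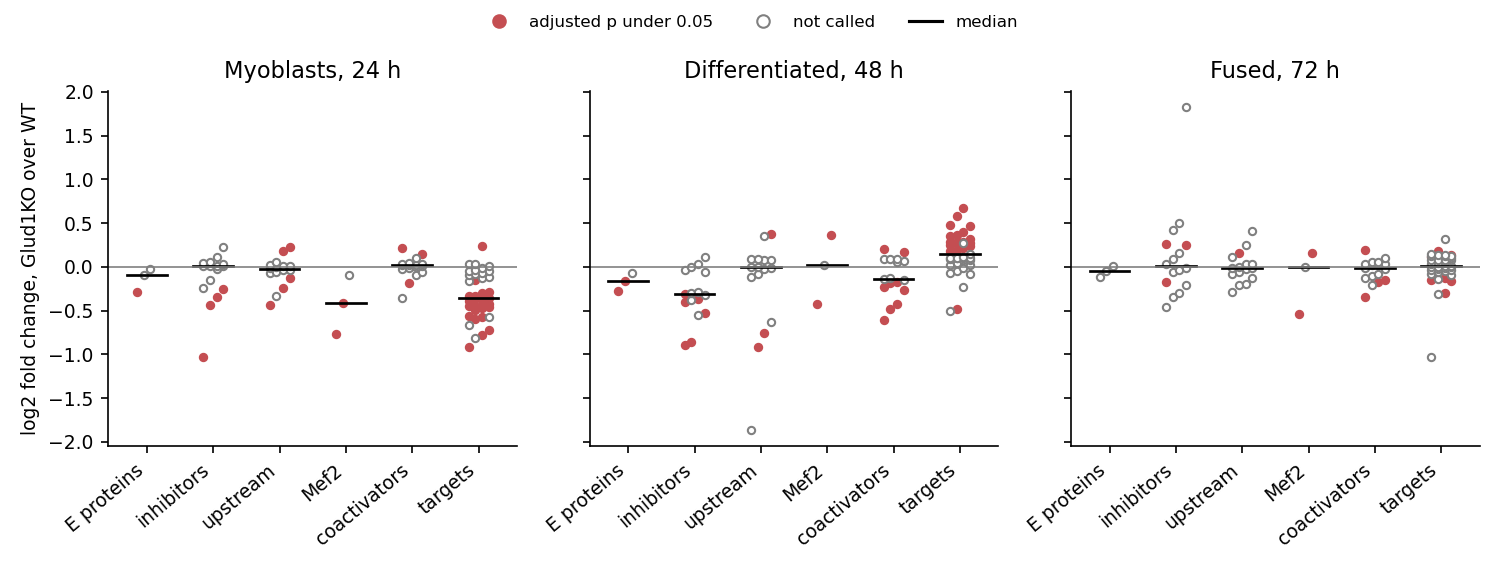
Log2 fold change of Glud1KO-labelled over WT-labelled libraries for each tested gene of the 6 lists, by stage, with filled points for an edgeR adjusted p under 0.05, open points otherwise and a bar for the list median. The target genes lie mostly below 0 in myoblasts (median -0.35) and above 0 in differentiated cells (median 0.15).

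Across the 19 libraries the factors did not share 1 pattern. On log2 CPM, Myog and Myf6 had a Pearson r of 0.80, Myod1 and Myf5 of -0.84, Myod1 and Myf6 of -0.73, and Myf5 and Myf6 of 0.39, as a description of libraries that share 6 groups. Among 11497 genes compared, those most like Myod1 were Pepd (0.99), Myl6 and Nbl1 (0.99 each). Those most like Myf5 were Map3k20 (0.96), G6pc3 (0.96) and Ndrg3 (0.96). Those most like Myf6 were Trim35, Atp2a1, the fast-fibre calcium pump, and Fto, at 1.00 each after rounding, and the same 3 led on log2 TPM. Those most like Myog were Ppfia4, Sorbs2 and C1qtnf3, also at 1.00, but none of these led on log2 TPM. For Myod1 and Myf5, 1 of the 3 stayed among the first 3 on log2 TPM, Pepd and G6pc3.

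Ppfia4, which encodes a liprin scaffold protein, is also the gene next to Myog, 4234 bases away on the minus strand, from 134296783 to 134332928 of chromosome 1. In myoblasts it held 7.03, 7.26 and 8.72 CPM under the WT label and 4.27, 4.68 and 5.79 CPM under the Glud1KO label, with no overlap. At 48 h it held 323, 376 and 352 CPM against 373 and 399 CPM. At 72 h it held 107, 87.6, 98.7 and 98.3 CPM against 109, 108, 110.5 and 122 CPM. It was lower under the Glud1KO label in myoblasts (log2 -0.66, SE 0.15, edgeR adjusted p = 0.00995) and not called at the later stages (0.14 and 0.19, edgeR adjusted p = 0.223 and 0.0814). Its effect in differentiated cells exceeded that in myoblasts by 0.80 (SE 0.17, edgeR adjusted p = 0.00336), beside 0.62 for Myog. The gene bodies do not overlap.

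Myf5 and Myf6, although next to each other, differed in level and course. Myf6 rose at each step, whereas Myf5 fell and then rose. Their other neighbour Ptprq, a receptor-type phosphatase gene 22311 bases from Myf6, ran opposite to Myf6, from 1.91 CPM in WT-labelled myoblasts to 0.306 CPM in myotubes (log2 -2.68, SE 0.29, edgeR adjusted p = 6.91e-11). It was near the floor in myotubes, with 4 to 8 counts per WT-labelled and 0 to 3 per Glud1KO-labelled library. Between the labels Ptprq was called at no stage (log2 -1.56 in myotubes, edgeR adjusted p = 0.0556). Near Myod1, the potassium channel gene Kcnc1, 17397 bases away, averaged 1.49, 16.9 and 23.4 CPM over the 3 WT-labelled stages, and the long non-coding RNA 1700025L06Rik, 27100 bases away, 0.376, 8.37 and 3.56 CPM. Neither was called between the labels at any stage, by edgeR's adjusted p of at least 0.113. Gm38117, 45548 bases from Myf5, had 0 counts in every library.

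**Figure D5:**
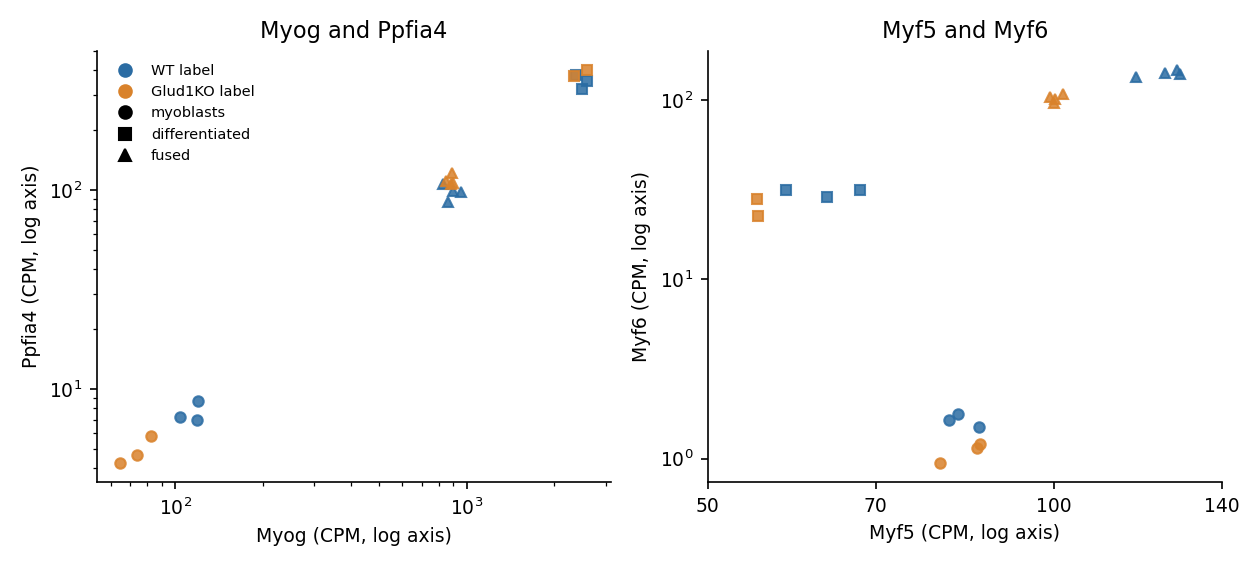
Left, Ppfia4 against Myog; right, Myf6 against Myf5, in CPM on log axes, 1 point per library, with colour for the label and shape for the stage. Ppfia4 and Myog rise and fall together from 4.27 and 64.6 CPM in a Glud1KO-labelled myoblast library upward, while Myf6 and Myf5 separate by stage without a common line.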

How the data were processed

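The 19 libraries were made with an mRNA kit, per the labels' protocols. The submitters' processing notes name bcl2fastq 2.20, fastp 0.20.0, kallisto 0.46.1 (which estimates counts per transcript), edgeR 3.36 and the build GRCm38.p6. The deposited files hold estimated counts, TPM and effective lengths for 121843 transcripts in each library, as the file headers name them. Of these, 121018 matched GENCODE M21, and the 825 others (0.255% to 0.507% of counts) were left out.

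Estimated counts were summed per gene (35598 genes), rounded, filtered with filterByExpr and tested with edgeR 4.0.16 (R 4.3.3, TMM, robust quasi-likelihood fit, 1 coefficient for each of 6 groups, 12 contrasts). Each SE was computed as the absolute log2 change over the square root of edgeR's F statistic. Intervals were built from that SE with a t quantile, and both are approximations. The deposited TPM served to compare genes per length, for Glud1 beside its CPM, and for alternatives. Alternatives used DESeq2 1.42.0, limma 3.58.1 on log2(TPM + 1), other scalings, filters and samples, and each library left out. No 2 replicates agreed within sampling noise (chi-square per degree of freedom 2.14 to 7.68).

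The members and lists were chosen with earlier results of these data known. Beside the 4 factors and Glud1, the text names the 3 genes most correlated with each factor, genes within 50 kb, and in each list and stage up to 2 rises and 2 falls among called genes with at least 1 CPM in the higher group. Col3a1, Itgam, Dcn, Lum, Ptprc and Adgre1 are named as cell-type markers. Id1, Id2 and Id4 are named beside Id3 as the other Id genes. Replicates share a number across labels, and the check of pairing is given with the other alternatives.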

Additional observations from a re-analysis of the deposited data

Results flagged for a closer look

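The label effect (log2, Glud1KO over WT) differed between stages in 6 of 12 interaction tests of the 4 factors by edgeR's quasi-likelihood test. The tests of a factor are not independent, because the change from myoblasts to myotubes is the sum of the earlier and later changes. Of all tested genes, 19.5% were called for the change from myoblasts to differentiated cells, 15.1% for that from differentiated cells to myotubes and 10.7% for that from myoblasts to myotubes. For Myog, the effect rose by 0.62 from myoblasts to differentiated cells (adjusted p = 1.08e-04) and by 0.62 from myoblasts to myotubes (adjusted p = 6.70e-05). For Myod1, it changed by -0.27 from myoblasts to differentiated cells (adjusted p = 0.00627) and by 0.42 from differentiated cells to myotubes (adjusted p = 2.35e-05). For Myf5, it changed by -0.20 from myoblasts to differentiated cells (adjusted p = 0.0376, a call lost under 13 of 21 alternatives) and by -0.33 from myoblasts to myotubes (adjusted p = 1.5e-04). In the groups of 4 libraries, no library of any factor stood apart from the rest by Dixon's test.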

How the results depend on the processing

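Of 48 comparisons of the 4 factors, 33 kept direction and call under every alternative run; of 860 alternative values, 795 did so, 25 lost the call, 3 gained one and 37 changed sign. Myf5 in myoblasts became -0.00827784 with DESeq2 size factors, -0.00827844 with DESeq2 and -0.001074 with only the libraries compared. Myog in differentiated cells became 0.006083 with DESeq2 size factors, 0.006099 with DESeq2 and 0.00147 with the main transcript. The Myog change of effect from differentiated cells to myotubes became -0.011558 with DESeq2 size factors, -0.011421 with DESeq2, -0.008483 with the main transcript and -0.001161 with a mean CPM of at least 1. With library size alone Myod1 went to -0.014235 (WT label, 48 h minus 24 h) and -0.336447 (Glud1KO label, called), and Myf5 to -0.063212 (Glud1KO label, 72 h minus 24 h). On log2(TPM + 1) the last 2 were -0.284643 (called) and -0.014376, and the Myf6 changes of effect from myoblasts were -0.012546 and -0.077657. Under the Glud1KO label the Myod1 change from 24 to 48 h was 0.043052 with DESeq2 size factors, 0.043056 with DESeq2, 0.040774 with a mean CPM of at least 1 and 0.013379 with the main transcript.

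Calls were lost for Myf6 in myoblasts with the effective-length offset (-0.56) and the main transcript (-0.57), for the Myod1 change of effect to 48 h with the main transcript (-0.26), and for that of Myf5 with DESeq2 size factors (-0.17), DESeq2 (-0.17), the offset (-0.23), the libraries compared (-0.20) and the main transcript (-0.20). Without 1 library each, values ran from -0.00852 to 0.0461 (Myf5, myoblasts), -0.64 to -0.48 (Myf6, myoblasts), -0.25 to -0.13 (Myf5, 48 h), -0.0875 to 0.0673 (Myog, 48 h), -0.45 to -0.13 (Myf6, 48 h), -0.0385 to 0.030028 (Myog, 72 h) and, for changes of effect, -0.26 to -0.15 (Myf5, 24 to 48 h), -0.0756 to 0.0792 (Myog, 48 to 72 h) and -0.32 to -0.00157813 (Myf6, 48 to 72 h, called at an adjusted p of 0.018 without Glud1KO-labelled replicate 1). A lone Glud1KO-labelled 48 h library was assumed to vary like the other groups.

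Genes called between the labels in myoblasts were 1785, and 664 with limma, 597 with the offset, 487 with the main transcript, 2788 with the libraries compared and 1001 to 1405 without 1 library (1001 without WT-labelled replicate 3, 1144 without Glud1KO-labelled replicate 3). At 48 h the 3840 became 2139 with the offset and 2094 with the main transcript. At 72 h the 1988 became 921, 822 and 686 with limma, the offset and the main transcript. For changes of effect these 3 settings gave 1859, 1458 and 1394 (of 2948, 24 to 48 h), 1393, 979 and 946 (of 2280, 48 to 72 h) and 635, 666 and 564 (of 1618, 24 to 72 h). Scaling moved the split of higher to lower calls: 756 to 1029 in myoblasts became 508 to 1204 with DESeq2 size factors, 1692 to 2148 at 48 h became 1057 to 2844 with library size alone, and, for changes of effect, 1211 to 1737 became 834 to 2316, 1267 to 1013 became 1705 to 559 (both library size alone) and 900 to 718 became 989 to 513 (DESeq2 size factors). On log2(TPM + 1) the splits were 104 to 560 in myoblasts, 376 to 2624 at 48 h, 345 to 576 at 72 h (964 to 1024 by edgeR) and, for changes of effect, 405 to 1454, 1221 to 172 and 427 to 208. Under the Glud1KO label, 6236 to 6412 from 24 to 48 h became 4924 to 7765 with library size alone. The cause of these shifts was not tested.

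Within each stage, deviations from the group means of same-numbered WT-labelled and Glud1KO-labelled libraries correlated at -0.05 to 0.03 over genes. Those with different numbers correlated at -0.06 to 0.05. These values cannot show whether same-numbered libraries share an animal or culture. With 2 Glud1KO-labelled 48 h libraries the deviations mirror each other, and pairing across stages was not checked. With the replicate block no call of a factor changed; Myog became 0.0196 at 48 h and its change of effect from 48 to 72 h -0.0246, neither called. Myf6 in myoblasts rests on few counts, 29 to 53 per library, at group means of 1.64 CPM under the WT label and 1.1 CPM under the Glud1KO label.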
